A study of Homo sapiens with 9 samples.

Results

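The genes described here are 51 genes of the synapse and of neuronal cells, of 58734 genes in the deposited count table: synaptic vesicle, release, adhesion and postsynaptic genes, neuronal channels and receptors, neuronal cytoskeleton and RNA-binding genes, and neurosecretory genes. They were taken from a named list, matched to Ensembl gene IDs by symbol, and all 51 were found. The list, the other gene lists and the motif used below were chosen with earlier results of these data known. Shares set against all genes are therefore not independent of that choice. RNA was sequenced from HEK293T cells, a transformed human embryonic kidney line, in 3 groups of 3 libraries: SIN3A knockdown, SIN3B knockdown and control siRNA. All 3 groups had received a Silencer Select siRNA at 10 nM for 36 h with the same transfection reagent, and no group was left untransfected. The group comes from the sample titles, since the treatment text names the control siRNA for every sample. The labels do not say how many siRNAs were used per target, and they do not say whether the 3 libraries of a group came from separate cultures, so p-values reflect library-to-library spread only, and that spread may be technical.

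REST is a zinc-finger repressor that binds a DNA element called RE1 near many neuronal genes and keeps them low in cells that are not neurons. It recruits SIN3 proteins, which are scaffolds for histone deacetylases, through its N-terminal repressor domain, and the RCOR1 (CoREST) complex through its C-terminal domain. Synaptic vesicle proteins, the SNARE machinery of vesicle fusion, neuronal ion channels and granins are classes in which REST targets are known, although not every gene listed here is an established REST target. Cells of a kidney-derived line are not neurons, although some neuronal genes were readily measured in the control libraries here, as given below.

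RE1-type sequences near these genes are shown because the genes are grouped as REST-type targets. The motif searched was TTCAGCACC, any 2 bases, GGACAG, any base, GCC, which fixes 18 letters, on both strands. RefSeq promoter windows (GRCh38.p14), from 250 bases before to 50 bases after an annotated start, were held for 37 of the 51 genes. CHGB, CPLX1, ELAVL3, GRIN1, MAPT, NRXN2, SCG2, SCN3A, SHANK1, SNAP25, STMN2, STMN4, SYN3 and SYT7 had no entry. With up to 4 mismatches, 5 of the 37 genes had a match, in 5 of their 67 windows; over all genes, 0.952% of 27305 genes and 0.769% of 35116 windows had one. Capitals mark letters equal to the fixed letters of the motif, with 4 flanking bases on each side, read 5′ to 3′ along the strand of the match. The windows of GRIA2 and SYN1 held all 18 letters, and 3 of all 27305 genes did. The GRIA2 match lies at chr4:157220388-157220408 on the minus strand, the SYN1 match at chrX:47620070-47620090 on the minus strand and the VGF match at chr7:101165559-101165579 on the plus strand. The UNC13A match lies at chr19:17688340-17688360 on the plus strand and the TUBB2B match at chr6:3227792-3227812 on the minus strand.
GRIA2 promoter: gcctTTCAGCACCgaGGACAGcGCCtcgc
SYN1 promoter: cagcTTCAGCACCgcGGACAGtGCCttcg
VGF promoter: cggcTTCAGCACgctGGACAGcGCCcgcg
UNC13A promoter: ttggTTCAGCACCggGGgCgcgGaCagcg
TUBB2B promoter: gtggTcCAGCcCCccGGACgGtcCCtagg

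The first 1000 bases of annotated transcripts (GENCODE 29, GRCh38) were searched in the same way, since RE1 elements can lie downstream of the start; this search was added after the promoter result was seen. With up to 3 mismatches, 6 of the 51 genes had a match, against 1.45% of 19922 genes, and with up to 4 mismatches 17 of the 51 had one, against 8.46%. A gene was counted if any of its annotated transcripts held a match, so genes with more transcripts had more sequence searched. A share per transcript was not computed. VGF is among the 6 through the same sequence as in its promoter window. The other 5, given with the position of the first base in the transcript, are GRIN1 (86), SYT5 (57), SYT4 (64), DLG4 (429) and CPLX2 (213, on the strand opposite to the transcript).
GRIN1 transcript: ccgcTTCAGCACCgcGGACAGcGCCggcc
SYT5 transcript: cgcgaTCAGCACCcgGGACAGcGCCaccg
SYT4 transcript: tcccTTCAGCACCtcGGACAGaaCacgca
CPLX2 transcript: tcctTTCAGCACCacGGAgAGcGCacccg
DLG4 transcript: tcccTTCAGaACCctGGACAGcGgtttca

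**Figure D1:**
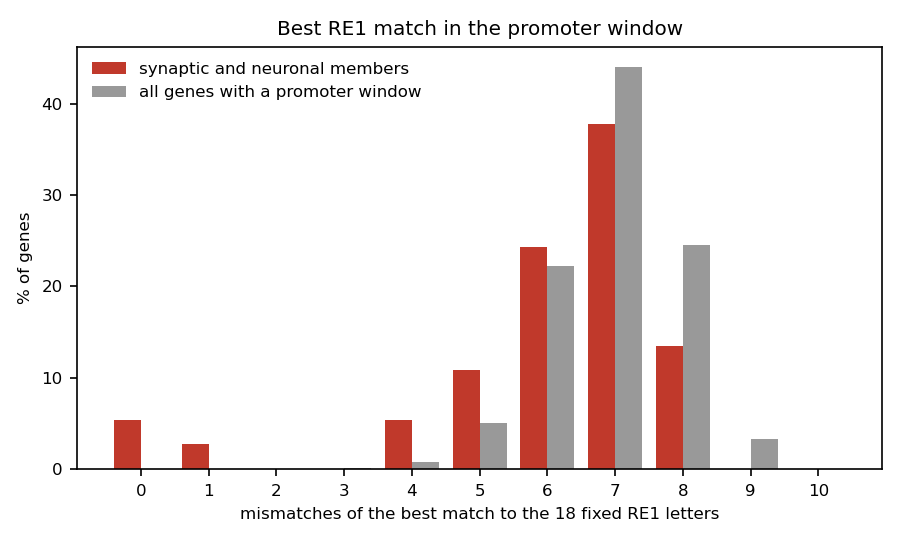
Mismatches of the best match to the 18 fixed RE1 letters in RefSeq promoter windows (x axis), as the percent of genes (y axis), for the 37 synaptic and neuronal genes with a window (red) and all 27305 genes with a window (grey). The red bars at 0 and 1 mismatch are 2 genes and 1 gene, and the most common best match in both groups had 7 mismatches.

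The plot of best matches shows that most of these genes had no close RE1-type sequence in the window searched. A match is a sequence likeness in a window and is not evidence of binding, and a gene without a match may have an element elsewhere. Of the 8 genes with at most 3 mismatches in either search, SYN1 and DLG4 fell in the SIN3A knockdown, VGF, GRIN1 and SYT5 did not pass the test in either knockdown, and GRIA2, CPLX2 and SYT4 were too low to test.

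Library totals ranged from 22542798 to 27084884 counts. At least 98% of the nonzero counts in every library were multiples of 4, so a step of 4 counts was taken as the smallest measurable unit and 12 counts in a library (0.442 to 0.552 CPM) as the floor. Levels are CPM after TMM scaling. The SIN3A knockdown libraries lay further apart than the others: the SD of the log2 difference between 2 libraries of the group, over 12815 genes, was 0.31 to 0.357, against 0.236 to 0.255 for SIN3B knockdown and 0.247 to 0.253 for control. SIN3A averaged 47.3 ± 2.5 CPM in SIN3A knockdown, 145 ± 4.8 CPM in SIN3B knockdown and 146 ± 4.0 CPM in control (SD, n = 3 each). SIN3B averaged 96.9 ± 11 CPM in SIN3A knockdown, 55.1 ± 3.6 CPM in SIN3B knockdown and 96.2 ± 4.7 CPM in control (SD, n = 3 each), so each target was lower in its own knockdown. All 8 HEK293 markers looked at were over the floor. Of 12 markers of neuronal identity, 6 were over the floor and SLC17A6, SLC32A1, TH and NEUROD6 had no count in any library.

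Most of these genes were expressed at low levels in the cells. Per kb of merged exon, the control level ran from 32.1 CPM per kb for NLGN2, an adhesion protein of inhibitory synapses, and 26.2 CPM per kb for VAMP2, the vesicle SNARE, down to genes with no count in any control library. STMN3 (18.6 CPM per kb), TUBB2B (16.6), SV2A (10.2), RAB3A (9.35) and SYP (8.53) followed VAMP2, and the control libraries of RAB3A overlapped those of SV2A and of SYP on this scale. ELAVL4 had no count in any library, and 9 genes, ELAVL4 among them, stayed at or under the floor in every library. The expression filter kept 41 genes for testing and left out SYT4, SNAP25, CPLX2, SCN3A, GRIA2, STMN2, STMN4, DCX, ELAVL3 and ELAVL4. The largest count of these 10 in any library was 16, for STMN2, whose role is in microtubule dynamics in growing axons. Of the 41 tested genes, 29 were above the cutoff of the filter (0.395 CPM) in all 3 libraries of every group. Another 5 (SYT5, SCN2A, GRIN1, MAP2 and SCG3) were above it in all libraries of 1 group only. SCN2A passed through control and is counted below as fallen in SIN3A knockdown. MAP2 passed through SIN3B knockdown and is counted below as lower in SIN3A than in SIN3B knockdown. SYN1, NRXN2 and CHGA, also counted as lower in SIN3A knockdown, were above it in all libraries of SIN3B knockdown and control only. Counts over the tested genes therefore partly reflect how they passed.

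**Figure D2:**
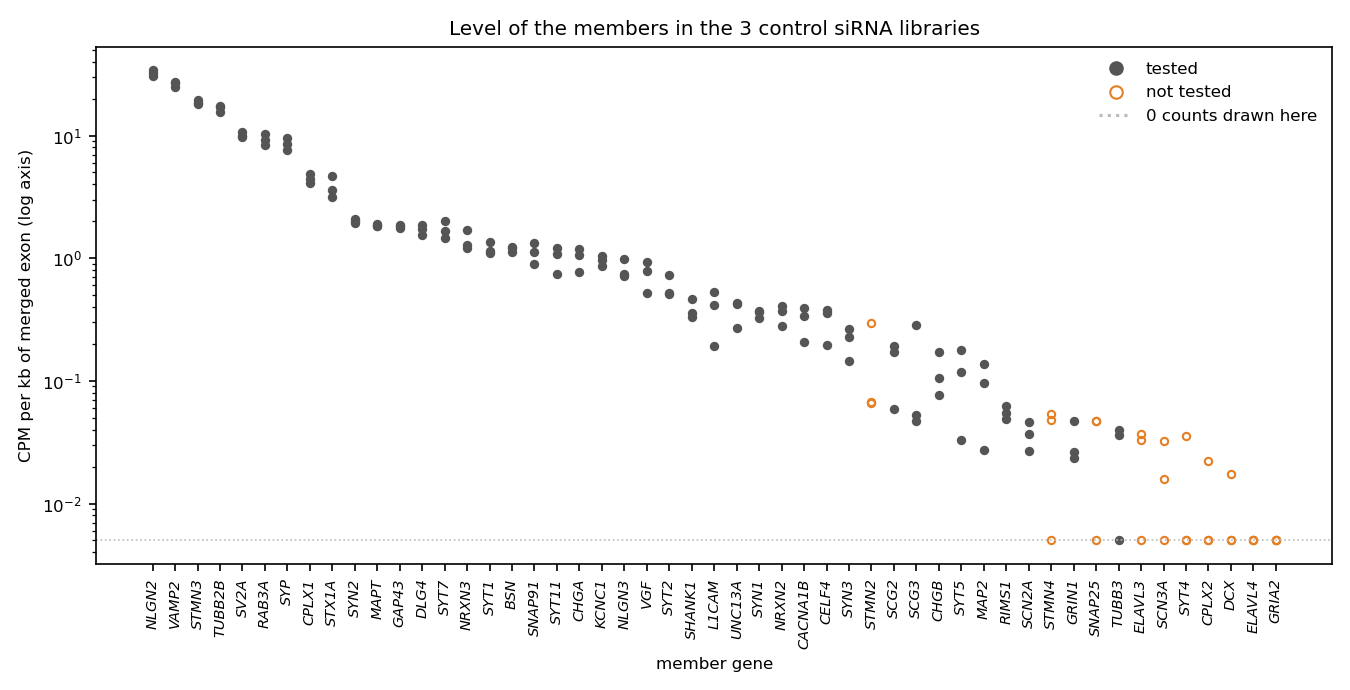
Level of the 51 genes in the 3 control siRNA libraries, in CPM per kb of merged exon on a log axis, with 1 point per library and genes ordered by their mean. Filled points are tested genes and open points are genes left out by the filter; a library with 0 counts is drawn on the dotted line. NLGN2 and VAMP2 lead, and the genes left out sit at the low end.

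The range of control levels in this plot spans genes that are readily measured and genes at a few counts, and the precision of each fold change follows that range. In the text that follows, a gene is said to have risen or fallen only when it passed edgeR's quasi-likelihood test at an adjusted p under 0.05, with p-values adjusted by the Benjamini-Hochberg method over all 16686 genes tested in that comparison. Fold changes are log2 values with the standard error of the fit.

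After SIN3A knockdown, 17 of the 41 tested genes fell and 0 rose, where 10.8% of all genes tested fell and 12.2% rose. The 17 were SYP, SYN1, SYT2, SYT7, SYT11, VAMP2, CPLX1, UNC13A, BSN, NRXN2, DLG4, SCN2A, KCNC1, STMN3, TUBB2B, GAP43 and CHGA, which cover vesicle, release, adhesion, scaffold, channel, cytoskeleton and granin genes. The median log2 fold change of the 41 genes was -0.74, against -0.00 over all genes tested, and 30 of the 41 were below 0, against 50.1% of all genes. The other 24 tested genes did not pass the test. With upper-quartile scaling, 2313 genes fell and 1352 rose over all genes tested, in place of 1807 and 2029, and the 17 calls stood. RAB3A (0.41) and NLGN2 (0.18) passed the test as risen when SIN3A knockdown replicate 1 was left out, and SV2A (0.25) did so with offsets for exon length and GC content. SYN2 fell (-0.48) without SIN3A knockdown replicate 2, and L1CAM (-1.38) without control replicate 2.

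After SIN3B knockdown, 9 of the 41 tested genes fell and 0 rose, where 11.6% of all genes tested fell and 12% rose. The 9 were SYP, SNAP91, SYT2, CPLX1, BSN, NLGN2, STMN3, TUBB2B and GAP43. The median log2 fold change of the 41 genes was -0.25, against -0.015 over all genes tested, and 27 of the 41 were below 0, against 51.7% of all genes. The count of fallen genes was 4 or 5 of 41 in the tests on FPKM and with offsets for exon length and GC content, and 5 without control replicate 3 or without SIN3B knockdown replicate 2. In these settings the share of the 41 genes was near the 11.6% of all genes tested that fell in the main fit. That is not the share of all genes in the same settings, which is not given here. The count over all genes also moved, to 1307 to 2290 leaving out 1 library each, against 1938 in the main fit. VAMP2 (0.22 to 0.37) and SYT1 passed as risen in several of the alternatives, among them the fit without SIN3A knockdown replicate 1 (SYT1 0.51) and that without SIN3A knockdown replicate 3 (SYT1 0.50). SYT1 also passed without SIN3B knockdown replicate 1 (0.63). KCNC1 fell (-0.46) without SIN3A knockdown replicate 2 and VGF (-1.74) without SIN3B knockdown replicate 3. Both knockdowns were set against the same 3 control libraries.

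The knockdowns differed in depth: SIN3A was at 32.5% of control in SIN3A knockdown, and SIN3B at 57.3% of control in SIN3B knockdown. A difference between the 2 proteins and a difference in depth of knockdown cannot be told apart here. Set directly against SIN3B knockdown, SIN3A knockdown had 14 of the 41 genes lower and 3 higher. Over all genes tested, 12.6% were lower and 14.5% were higher. The 14 lower genes were SYP, SYN1, SYT2, SYT7, VAMP2, CPLX1, UNC13A, BSN, NRXN2, DLG4, KCNC1, STMN3, MAP2 and CHGA, and the 3 higher genes were SNAP91, RAB3A and NLGN2. The median log2 difference over the 41 genes was -0.42, against -0.02 over all genes tested. SYN2 was also lower (-0.60) without SIN3A knockdown replicate 2, and in that fit SNAP91 (0.58) and NLGN2 (0.25) did not pass, so that 1 of the 3 higher genes remained.

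**Figure D3:**
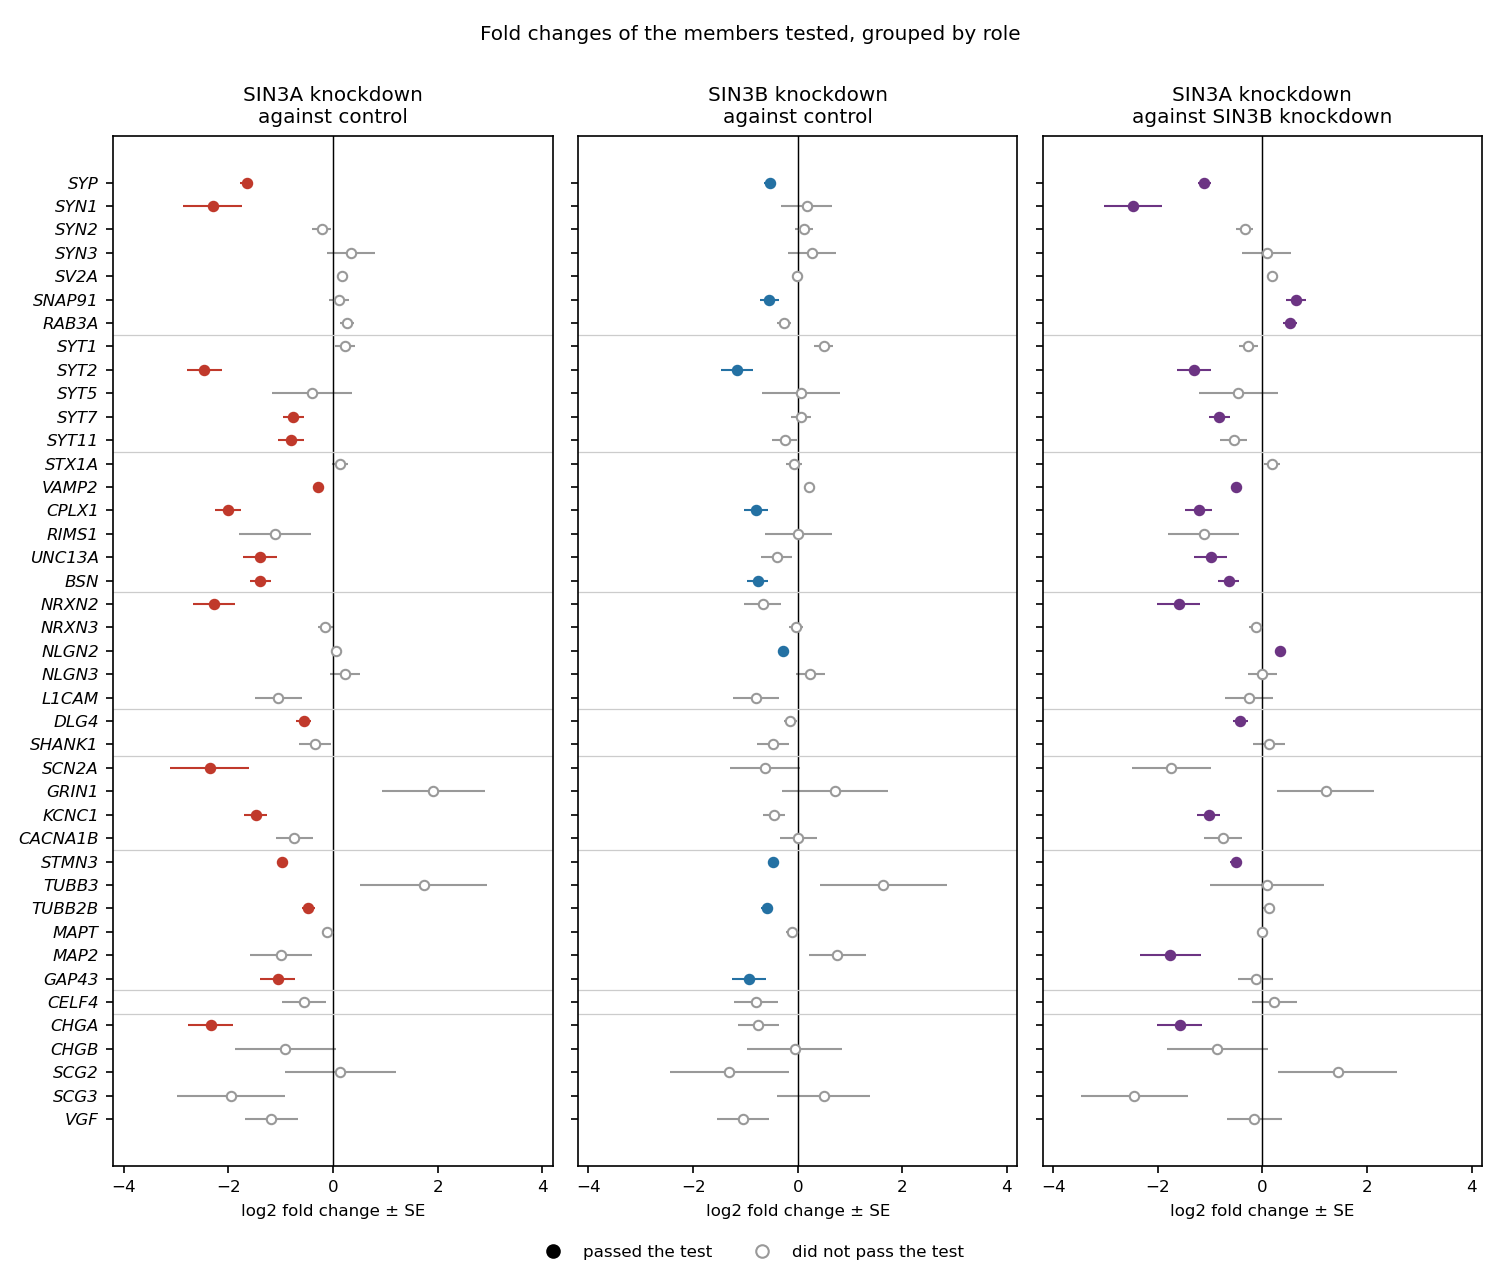
Log2 fold change of the 41 tested genes, with bars of 1 SE, for SIN3A knockdown against control (left), SIN3B knockdown against control (middle) and SIN3A knockdown against SIN3B knockdown (right). Genes are grouped by role between grey lines; filled points passed the test and open points did not. No filled point lies above 0 in the left and middle panels, and 3 do in the right panel.

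The plot of fold changes shows wide error bars for genes near the floor, such as TUBB3 and SCG2, and narrow ones for SYP, VAMP2, NLGN2 and STMN3. Summed over the 51 genes, the level was 497, 586.7 and 553.1 CPM in SIN3A knockdown, 607.9, 574.8 and 575 CPM in SIN3B knockdown and 680.5, 659.6 and 694.4 CPM in control. Every knockdown library was below every control library in this sum, to which NLGN2 contributes the most. In these bulk libraries fewer cells expressing a gene and less RNA per cell cannot be told apart.

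Among the 7 synaptic vesicle proteins, all tested, 2 fell in SIN3A knockdown (SYP and SYN1) and 2 fell in SIN3B knockdown (SYP and SNAP91). For this and each role below, 10.8% of all genes tested fell in SIN3A knockdown and 11.6% in SIN3B knockdown. Each role holds few genes, so its count describes those genes and is not a result about the role. SYP encodes synaptophysin, an integral vesicle membrane protein, at chrX:49187804-49200259 on the minus strand (GENCODE 29, GRCh38, as for all gene positions here). SYP had 15.3, 13 and 14.4 CPM in SIN3A knockdown, 34.6, 28.5 and 29.3 CPM in SIN3B knockdown, and 49.4, 39.6 and 44.4 CPM in control. The 3 groups did not overlap, with SIN3A knockdown lowest and control highest. Its log2 fold change against control was -1.65 ± 0.12 in SIN3A knockdown (edgeR adjusted p = 1.8e-08) and -0.53 ± 0.11 in SIN3B knockdown (edgeR adjusted p = 0.0019). The direct difference was -1.11 ± 0.12 (edgeR adjusted p = 8.1e-07), and the 3 calls held in all 22 alternatives tried.

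SYN1 encodes synapsin I, which ties vesicles to the actin cytoskeleton, at chrX:47571898-47619943 on the minus strand, and its promoter sequence with all 18 RE1 letters is shown above. SYN1 had 0.184, 0.157 and 0.47 CPM in SIN3A knockdown, 1.68, 1.62 and 1.28 CPM in SIN3B knockdown, and 1.43, 1.25 and 1.4 CPM in control. All SIN3A knockdown libraries were at or under the floor and below every other library, while SIN3B knockdown and control overlapped. In deposited counts, these were 4, 4 and 12 in SIN3A knockdown against 36, 32 and 32 in control, a ratio of 0.202 with an exact 95% counting interval of 0.0604 to 0.537 in units of 4 counts. The fitted log2 fold change was -2.30 ± 0.56 (edgeR adjusted p = 0.0055) in SIN3A knockdown and 0.17 ± 0.49 (edgeR adjusted p = 0.86) in SIN3B knockdown. The direct difference was -2.47 ± 0.56 (edgeR adjusted p = 0.0023). With a weight per group in limma voom, the SIN3A call was lost (-2.39, adjusted p = 0.051).

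SNAP91, a clathrin assembly protein of vesicle recycling (chr6:83552880-83709691, minus strand), had 7.73, 8.76 and 7.36 CPM in SIN3A knockdown, 4.29, 5.31 and 5.6 CPM in SIN3B knockdown, and 7.47, 5.95 and 8.78 CPM in control. SIN3B knockdown was lower than both other groups, which overlapped each other. SNAP91 fell by 0.54 ± 0.19 on the log2 scale in SIN3B knockdown (edgeR adjusted p = 0.047) and was higher by 0.65 ± 0.19 in SIN3A than in SIN3B knockdown (edgeR adjusted p = 0.016). The SIN3B call was lost in 11 of 22 alternatives, among them those without control replicate 1 (-0.54) or 3 (-0.40) and without SIN3B knockdown replicate 1 (-0.46), 2 (-0.58) or 3 (-0.62). The direct call was lost without SIN3A knockdown replicate 2 (0.58) or SIN3B knockdown replicate 1 (0.55).

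RAB3A, a small GTPase of synaptic vesicles (chr19:18196784-18204074, minus strand), had 16.9, 21.9 and 22.6 CPM in SIN3A knockdown, 14.5, 14.4 and 13.6 CPM in SIN3B knockdown, and 16.8, 15.3 and 18.8 CPM in control. SIN3B knockdown was the lowest of the groups, and SIN3A knockdown overlapped control. RAB3A was higher by 0.53 ± 0.14 in SIN3A than in SIN3B knockdown (edgeR adjusted p = 0.0058), a call lost in the tests on FPKM (0.38 and 0.50), and it did not pass against control in either knockdown (0.27 ± 0.13 and -0.26 ± 0.14). It shares 165 of 1818 exon bases with MPV17L2 on the other strand, which rose in SIN3A knockdown (0.48, edgeR adjusted p = 0.0016); the part of these reads in the result was not tested. SYN2 and SYN3, the other synapsins, and SV2A, a vesicle glycoprotein, did not pass in any comparison, with log2 fold changes from -0.22 to 0.35 in SIN3A and from -0.01 to 0.27 in SIN3B knockdown.

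Synaptotagmins sense calcium at the vesicle or regulate its traffic, and 5 of the 6 were tested. In SIN3A knockdown 3 fell (SYT2, SYT7 and SYT11) and in SIN3B knockdown 1 fell (SYT2). SYT2, a fast calcium sensor of vesicle release (chr1:202590596-202710417, minus strand), had 0.736, 0.939 and 0.783 CPM in SIN3A knockdown, 1.53, 2.65 and 1.92 CPM in SIN3B knockdown, and 3.97, 5.64 and 4.04 CPM in control. The groups did not overlap and stood in that order from low to high. Its log2 fold change was -2.46 ± 0.33 in SIN3A knockdown (edgeR adjusted p = 2.8e-05) and -1.16 ± 0.30 in SIN3B knockdown (edgeR adjusted p = 0.0076), with a direct difference of -1.31 ± 0.33 (edgeR adjusted p = 0.0059). SYT2 shares 2111 of its 7774 exon bases with PPP1R12B on the opposite strand, at 38.2, 39.3 and 32.7 mean CPM in SIN3A knockdown, SIN3B knockdown and control, and how strand was handled in counting is not given in the sources used here, so its level is uncertain. The SIN3B call was lost without control replicate 2 (-0.99), and the direct one with a weight per group (-1.26).

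SYT7, a high-affinity calcium sensor of slower release (chr11:61515313-61581148, minus strand), had 4.23, 6.1 and 7.68 CPM in SIN3A knockdown, 11.5, 11.5 and 8.96 CPM in SIN3B knockdown, and 11.9, 8.77 and 10 CPM in control. SIN3A knockdown was below both other groups, which overlapped. SYT7 fell by 0.76 ± 0.20 in SIN3A knockdown (edgeR adjusted p = 0.0094), a call lost without control replicate 1 (-0.64), and was lower than in SIN3B knockdown by -0.82 ± 0.20 (edgeR adjusted p = 0.0043). SYT11, a synaptotagmin that does not bind calcium (chr1:155859509-155885199, plus strand), had 3.5, 2.66 and 2.98 CPM in SIN3A knockdown, 5.36, 3.54 and 4.48 CPM in SIN3B knockdown, and 5.72, 3.91 and 6.32 CPM in control. SIN3A knockdown was lowest, by a small gap to the lowest libraries of the other groups. SYT11 fell by 0.81 ± 0.25 (edgeR adjusted p = 0.024), and the call was lost without control replicate 1 (-0.75) or 3 (-0.65), without SIN3A knockdown replicate 2 (-0.72) or 3 (-0.79), and with a weight per group (-0.78). SYT1, the main calcium sensor of forebrain synapses, did not pass in any comparison, at 0.23 ± 0.19 in SIN3A and 0.50 ± 0.18 in SIN3B knockdown (edgeR adjusted p = 0.055 in SIN3B knockdown), and neither did SYT5.

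Of the 8 genes of vesicle fusion and the active zone, 6 were tested, and 4 fell in SIN3A knockdown (VAMP2, CPLX1, UNC13A and BSN) and 2 in SIN3B knockdown (CPLX1 and BSN). CPLX1, complexin, which holds and releases the SNARE complex (chr4:784957-826198, minus strand), had 3.86, 2.82 and 1.41 CPM in SIN3A knockdown, 6.73, 6.19 and 5.76 CPM in SIN3B knockdown, and 10.6, 10 and 11.8 CPM in control. The groups did not overlap, with SIN3B knockdown between the others. CPLX1 changed by -2.01 ± 0.25 in SIN3A knockdown (edgeR adjusted p = 1.4e-05), by -0.79 ± 0.23 in SIN3B knockdown (edgeR adjusted p = 0.016) and by -1.22 ± 0.25 between them (edgeR adjusted p = 0.0012). The SIN3B call was lost without control replicate 3 (-0.73), without SIN3B knockdown replicate 2 (-0.79) or 3 (-0.74), on FPKM (-0.75 and -0.79) and with offsets for exon length and GC content (-0.56).

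BSN, bassoon, a scaffold of the active zone (chr3:49554489-49671545, plus strand), had 4.05, 9.39 and 8.46 CPM in SIN3A knockdown, 11.3, 11.6 and 11.4 CPM in SIN3B knockdown, and 18.3, 20.2 and 19.5 CPM in control. All SIN3A knockdown libraries were below all SIN3B knockdown libraries and those below all control libraries, and SIN3A knockdown replicate 1 was the lowest. BSN fell by 1.39 ± 0.20 in SIN3A knockdown (edgeR adjusted p = 6.7e-05) and by 0.76 ± 0.20 in SIN3B knockdown (edgeR adjusted p = 0.0077). The SIN3B call was lost on FPKM (-0.74 and -0.75). The direct difference was -0.64 ± 0.20 (edgeR adjusted p = 0.024) and was lost without SIN3A knockdown replicate 1 (-0.35), without SIN3B knockdown replicate 1 (-0.64), 2 (-0.63) or 3 (-0.64), on FPKM (-0.72 and -0.74) and in a fit of only these 6 libraries (-0.63).

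UNC13A, which primes vesicles for fusion (chr19:17601328-17688365, minus strand), had 1.66, 2.03 and 1.1 CPM in SIN3A knockdown, 2.14, 3.39 and 4 CPM in SIN3B knockdown, and 3.02, 4.85 and 4.74 CPM in control. SIN3A knockdown was lowest, and SIN3B knockdown overlapped control. UNC13A fell by 1.40 ± 0.32 in SIN3A knockdown (edgeR adjusted p = 0.0036) and had -0.40 ± 0.30 in SIN3B knockdown (edgeR adjusted p = 0.39). The direct difference of -0.99 ± 0.32 (edgeR adjusted p = 0.026) was lost without SIN3A knockdown replicate 3 (-0.78), without SIN3B knockdown replicate 2 (-0.94) or 3 (-0.79), on FPKM (-0.58 and -0.92) and with a weight per group (-0.98). VAMP2, the vesicle SNARE synaptobrevin (chr17:8159149-8163546, minus strand), had 60.3, 76.1 and 74 CPM in SIN3A knockdown, 101, 98.8 and 98.1 CPM in SIN3B knockdown, and 80.7, 87.5 and 88.5 CPM in control. The groups did not overlap, and control lay between the knockdowns. VAMP2 fell by 0.29 ± 0.09 in SIN3A knockdown (edgeR adjusted p = 0.02), a call lost without SIN3A knockdown replicate 1 (-0.17), without control replicate 2 (-0.27) or 3 (-0.25) and with offsets for exon length and GC content (-0.20). In SIN3B knockdown VAMP2 had 0.21 ± 0.08 (edgeR adjusted p = 0.075), which passed without SIN3A knockdown replicate 1 (0.22) or 3 (0.22), and the knockdowns differed by -0.50 ± 0.09 (edgeR adjusted p = 0.00018). STX1A, a plasma membrane SNARE, and RIMS1, an active zone organiser, did not pass in any comparison. STX1A shares 662 of 3693 exon bases with BUD23 on the opposite strand, so its level is uncertain. BUD23 had 165, 141 and 143 mean CPM in SIN3A knockdown, SIN3B knockdown and control, and rose in SIN3A knockdown (0.20, edgeR adjusted p = 0.049).

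Of the 5 adhesion genes, all tested, 1 fell in SIN3A knockdown (NRXN2) and 1 in SIN3B knockdown (NLGN2), where 10.8% and 11.6% of all genes tested fell. NRXN2, a presynaptic neurexin (chr11:64606174-64723188, minus strand), had 0.736, 0.313 and 1.25 CPM in SIN3A knockdown, 3.06, 2.21 and 1.76 CPM in SIN3B knockdown, and 4.29, 3.91 and 2.99 CPM in control. SIN3A knockdown was lowest, and SIN3B knockdown overlapped control. NRXN2 fell by 2.27 ± 0.40 in SIN3A knockdown (edgeR adjusted p = 0.00047), had -0.67 ± 0.36 in SIN3B knockdown (edgeR adjusted p = 0.21) and differed by -1.60 ± 0.41 between them (edgeR adjusted p = 0.0054). NLGN2, neuroligin 2, a postsynaptic partner of neurexins (chr17:7404874-7419860, plus strand), had 155, 205 and 193 CPM in SIN3A knockdown, 155, 147 and 139 CPM in SIN3B knockdown, and 188, 169 and 179 CPM in control. SIN3B knockdown was below control, while SIN3A knockdown ranged on both sides of it, with replicate 1 as low as SIN3B knockdown. NLGN2 fell by 0.28 ± 0.09 in SIN3B knockdown (edgeR adjusted p = 0.022), had 0.05 ± 0.09 in SIN3A knockdown and differed by 0.33 ± 0.09 between them (edgeR adjusted p = 0.007). The SIN3B call was lost without control replicate 1 (-0.24) or 3 (-0.28), without SIN3B knockdown replicate 2 (-0.28) or 3 (-0.24), on FPKM and with offsets for exon length and GC content (-0.08). The direct call was lost without SIN3A knockdown replicate 2 (0.25) or SIN3B knockdown replicate 3 (0.29). NRXN3, NLGN3 and L1CAM did not pass in any comparison; L1CAM had -1.05 ± 0.45 in SIN3A knockdown and -0.80 ± 0.44 in SIN3B knockdown.

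**Figure D4:**
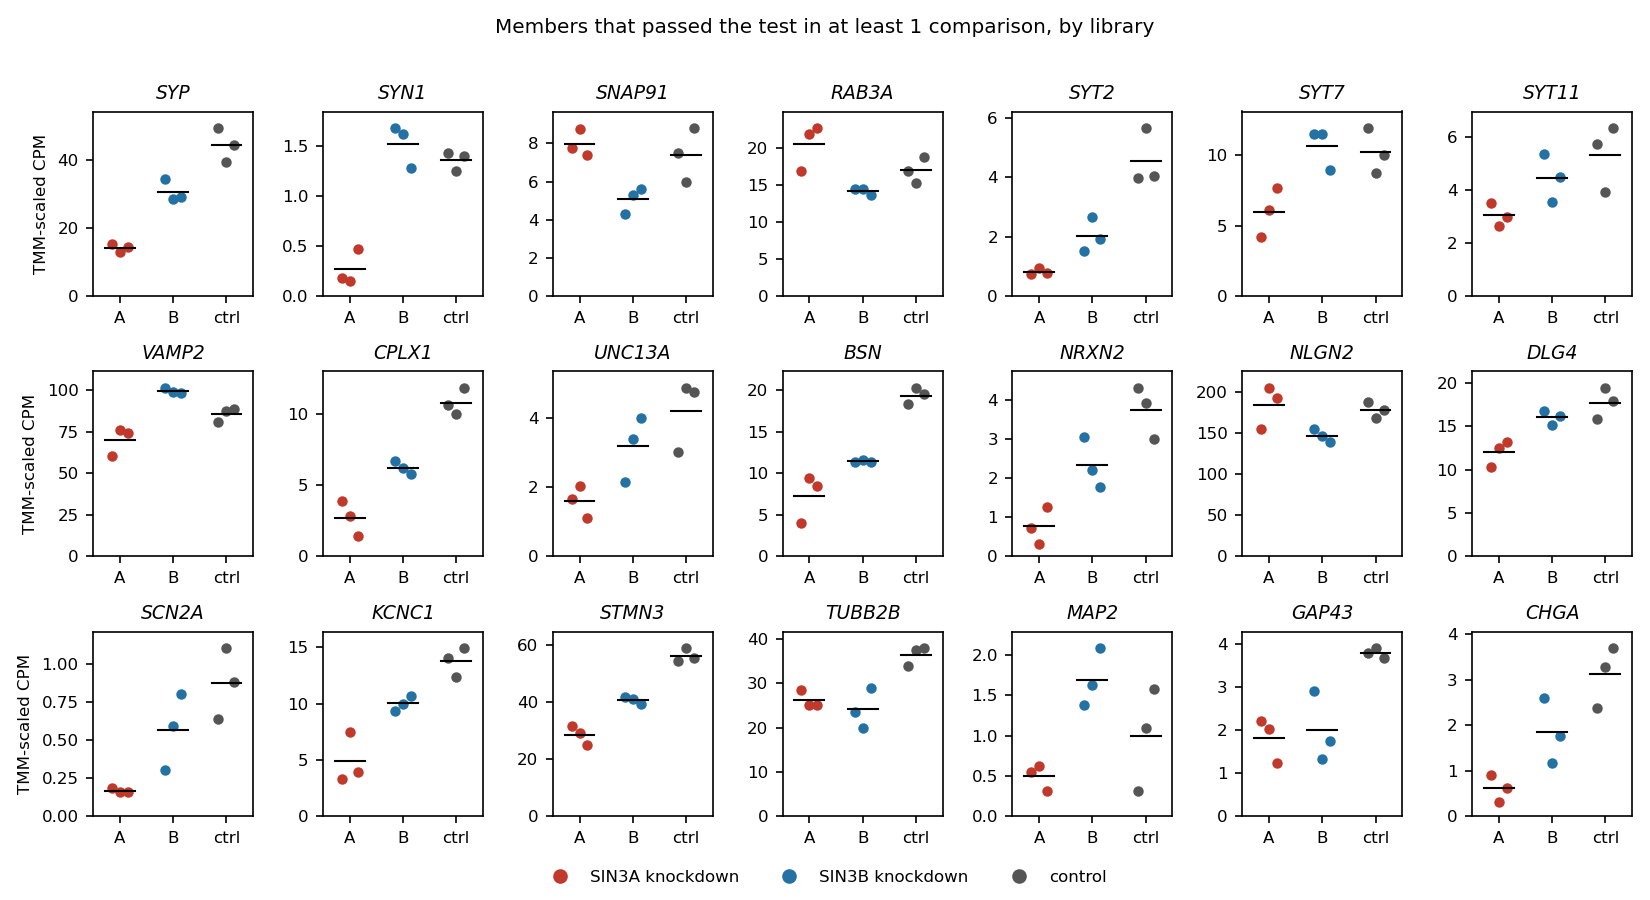
Level in each library, in TMM-scaled CPM on a linear axis from 0, of the 21 genes that passed the test in at least 1 comparison. Each panel is 1 gene, with SIN3A knockdown (A, red), SIN3B knockdown (B, blue) and control (ctrl, grey) from left to right, points for libraries and a line for the group mean. In SYP, SYT2, CPLX1, BSN, KCNC1 and STMN3 the SIN3B knockdown libraries lie between those of SIN3A knockdown and control without overlap, and SNAP91, RAB3A, NLGN2 and TUBB2B have SIN3B knockdown lowest by mean.

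The plot of levels by library sets these genes beside each other: for most of them SIN3A knockdown is the lowest group. That follows from how they were chosen, since 17 of the genes drawn are those that fell in SIN3A knockdown. DLG4, or PSD-95, the main scaffold of the excitatory postsynaptic density (chr17:7187169-7219841, minus strand), had 10.3, 12.5 and 13.2 CPM in SIN3A knockdown, 16.8, 15.2 and 16.2 CPM in SIN3B knockdown, and 15.9, 19.4 and 17.9 CPM in control. SIN3A knockdown was below both other groups. DLG4 fell by 0.56 ± 0.14 in SIN3A knockdown (edgeR adjusted p = 0.0054), had -0.14 ± 0.13 in SIN3B knockdown and differed by -0.42 ± 0.14 between them (edgeR adjusted p = 0.027). The direct call was lost without SIN3A knockdown replicate 1 (-0.31), without SIN3B knockdown replicate 1 (-0.37) or 3 (-0.41), with a weight per group (-0.42) and in a fit of these 6 libraries (-0.41). SHANK1, the other postsynaptic scaffold, did not pass in any comparison.

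Of the 6 channel and receptor genes, 4 were tested, and 2 fell in SIN3A knockdown (KCNC1 and SCN2A) and 0 in SIN3B knockdown. KCNC1, a voltage-gated potassium channel of fast-spiking neurons (chr11:17734774-17856804, plus strand), had 3.31, 7.51 and 3.92 CPM in SIN3A knockdown, 9.34, 10 and 10.7 CPM in SIN3B knockdown, and 14, 12.4 and 14.9 CPM in control. The groups did not overlap, with SIN3B knockdown in between, and SIN3A knockdown replicate 2 stood above the other libraries of its group. KCNC1 fell by 1.48 ± 0.22 in SIN3A knockdown (edgeR adjusted p = 9.8e-05), had -0.46 ± 0.21 in SIN3B knockdown (edgeR adjusted p = 0.13) and differed by -1.02 ± 0.22 between them (edgeR adjusted p = 0.0018). SCN2A, a neuronal sodium channel (chr2:165194993-165392310, plus strand), had 0.184, 0.157 and 0.157 CPM in SIN3A knockdown, 0.306, 0.59 and 0.8 CPM in SIN3B knockdown, and 0.636, 1.1 and 0.878 CPM in control. Every SIN3A knockdown library held 4 counts, under the floor, against 16, 28 and 20 counts in control, a ratio of 0.189 with an exact 95% counting interval of 0.0353 to 0.661 in units of 4 counts. The fitted change was -2.36 ± 0.76 (edgeR adjusted p = 0.029). That call was lost without any one of the control libraries (-2.54, -2.16 and -2.34 without control replicate 1, 2 and 3), without any one of the SIN3A knockdown libraries (-2.42, -2.32 and -2.32), with no filter and with a weight per group. GRIN1, an NMDA receptor subunit whose transcript sequence with all 18 RE1 letters is shown above, had 1.1, 0.626 and 0.783 CPM in SIN3A knockdown, 0.918, 0 and 0.16 CPM in SIN3B knockdown, and 0.318, 0.157 and 0.176 CPM in control. Its SIN3A knockdown libraries were above its control libraries, which were all under the floor, and it did not pass (1.92 ± 0.98, edgeR adjusted p = 0.17). CACNA1B, a presynaptic calcium channel, did not pass in any comparison.

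Among the 9 neuronal cytoskeleton and growth genes, 6 were tested, and 3 fell in both SIN3A and SIN3B knockdown (STMN3, TUBB2B and GAP43). STMN3, a microtubule-destabilising stathmin (chr20:63639705-63657682, minus strand), had 31.6, 29.4 and 25.2 CPM in SIN3A knockdown, 41.9, 41.1 and 39.4 CPM in SIN3B knockdown, and 54.4, 59 and 55.7 CPM in control. The 3 groups were separate, with SIN3B knockdown in between. STMN3 fell by 0.97 ± 0.10 in SIN3A knockdown (edgeR adjusted p = 1e-06) and by 0.47 ± 0.10 in SIN3B knockdown (edgeR adjusted p = 0.0014), with a direct difference of -0.51 ± 0.10 (edgeR adjusted p = 0.0006), and the 3 calls held in all 22 alternatives. TUBB2B, a beta-tubulin of developing neurons (chr6:3224261-3231730, minus strand), had 28.5, 25.2 and 25.2 CPM in SIN3A knockdown, 23.6, 19.9 and 29 CPM in SIN3B knockdown, and 33.9, 37.6 and 37.9 CPM in control. The knockdowns overlapped each other and lay below control. TUBB2B fell by 0.47 ± 0.12 in SIN3A knockdown (edgeR adjusted p = 0.0091) and by 0.59 ± 0.12 in SIN3B knockdown (edgeR adjusted p = 0.0015). Its sequence is close to that of its paralog TUBB2A, which had 0.07 ± 0.12 and -0.16 ± 0.12, so reads could be split between them and the level is uncertain. TUBB2B also shares 174 of 2194 exon bases with PSMG4 on the opposite strand, at 28.7 mean CPM in control.

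GAP43, a growth cone protein (chr3:115623324-115721490, plus strand), had 2.21, 2.03 and 1.25 CPM in SIN3A knockdown, 2.91, 1.33 and 1.76 CPM in SIN3B knockdown, and 3.81, 3.91 and 3.69 CPM in control. All knockdown libraries were below all control libraries. GAP43 fell by 1.06 ± 0.33 in SIN3A knockdown (edgeR adjusted p = 0.024) and by 0.93 ± 0.32 in SIN3B knockdown (edgeR adjusted p = 0.042). The SIN3A call was lost without control replicate 1 (-1.06), 2 (-1.04) or 3 (-1.07), without SIN3A knockdown replicate 3 (-0.84) and with a weight per group (-1.11). The SIN3B call was lost without control replicate 1 (-0.93), 2 (-0.92) or 3 (-0.95), without SIN3B knockdown replicate 2 (-0.70) or 3 (-0.85), on FPKM with a pseudocount of 0.1 (-0.97) and with offsets for exon length and GC content (-0.86). MAP2, a dendritic microtubule protein (chr2:209424058-209734118, plus strand), had 0.552, 0.626 and 0.313 CPM in SIN3A knockdown, 1.38, 1.62 and 2.08 CPM in SIN3B knockdown, and 0.318, 1.1 and 1.58 CPM in control. Control overlapped both knockdowns, and SIN3A knockdown was below SIN3B knockdown. The difference between the knockdowns was -1.76 ± 0.58 (edgeR adjusted p = 0.029), and neither passed against control (-1.0 ± 0.59 in SIN3A and 0.76 ± 0.55 in SIN3B knockdown). It was lost without SIN3A knockdown replicate 3 (-1.51), without SIN3B knockdown replicate 2 (-1.79) or 3 (-1.59) and with a weight per group (-1.76). MAPT, the tau gene, had -0.11 ± 0.11 in both knockdowns. TUBB3, a marker tubulin of neurons, had at most 20 counts in a library and shares 1584 of 4430 exon bases on the same strand with AC092143.1, which had no count, so its level is uncertain.

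Of the 5 neurosecretory genes, all tested, 1 fell in SIN3A knockdown (CHGA) and 0 in SIN3B knockdown, where 10.8% and 11.6% of all genes tested fell. CHGA, chromogranin A, a core protein of dense-core granules (chr14:92923080-92935293, plus strand), had 0.92, 0.313 and 0.627 CPM in SIN3A knockdown, 2.6, 1.18 and 1.76 CPM in SIN3B knockdown, and 2.38, 3.29 and 3.69 CPM in control. SIN3A knockdown was below every other library, and SIN3B knockdown overlapped control. CHGA fell by 2.34 ± 0.43 in SIN3A knockdown (edgeR adjusted p = 0.00064), had -0.75 ± 0.39 in SIN3B knockdown (edgeR adjusted p = 0.18) and differed by -1.58 ± 0.43 between them (edgeR adjusted p = 0.0092). The direct call was lost without SIN3B knockdown replicate 1 (-1.24) and with a weight per group (-1.62). VGF, a neuropeptide precursor with an RE1-type sequence that begins 10 bases before its RefSeq start and runs across it, had 1.1, 0.939 and 0.627 CPM in SIN3A knockdown, 0.459, 0.737 and 1.76 CPM in SIN3B knockdown, and 2.54, 1.41 and 2.11 CPM in control. Only the SIN3A knockdown libraries were all below control, and VGF did not pass (-1.18 ± 0.50, edgeR adjusted p = 0.1, and -1.04 ± 0.50, edgeR adjusted p = 0.15). CHGB, SCG2 and SCG3, the other granins, did not pass in any comparison. Of the 3 RNA-binding genes, CELF4 was tested and did not pass (-0.56 ± 0.42 in SIN3A and -0.79 ± 0.42 in SIN3B knockdown).

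The factor that the grouping of these genes names was higher in both knockdowns. REST averaged 40.3 ± 3.8 CPM in SIN3A knockdown, 34.1 ± 2.1 CPM in SIN3B knockdown and 25.1 ± 1.1 CPM in control (SD, n = 3 each). REST rose by 0.68 ± 0.10 in SIN3A knockdown (edgeR adjusted p = 0.0001) and by 0.44 ± 0.10 in SIN3B knockdown (edgeR adjusted p = 0.0036), the second of which was lost with offsets for exon length and GC content (0.25, edgeR adjusted p = 0.062). Of 13 tested genes of a 14-gene list of REST and its cofactors, 0 fell and 3 rose in SIN3A knockdown, and 2 fell and 5 rose in SIN3B knockdown; the shares of all genes tested were 10.8% fallen and 12.2% risen in SIN3A knockdown, and 11.6% fallen and 12% risen in SIN3B knockdown. In SIN3A knockdown HMG20B, a subunit of the CoREST complex (0.50 ± 0.06), and CTDSP2, a phosphatase recruited by REST (0.37 ± 0.08), rose with REST. In SIN3B knockdown RCOR3 (0.40 ± 0.12) and HMG20B (0.21 ± 0.06) rose, while the phosphatases CTDSPL (-0.91 ± 0.08) and CTDSP2 (-0.45 ± 0.08) fell. Whether REST level or binding bears on the genes described here was not tested.

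Other synaptic and neuronal genes moved both ways. Over all genes tested, as above, 10.8% fell and 12.2% rose in SIN3A knockdown, and 11.6% fell and 12% rose in SIN3B knockdown. In a separate list of 54 synaptic genes, 44 of them tested, 7 fell and 4 rose in SIN3A knockdown, and 10 fell and 5 rose in SIN3B knockdown. In SIN3A knockdown RIMS4 (-1.01 ± 0.12), the calcium-binding release factor DOC2A (-0.70 ± 0.12) and RAB3C (-2.20 ± 0.41) fell, and HOMER1 (0.54 ± 0.12), SYNJ1 (0.46 ± 0.12) and RIMS3 (0.53 ± 0.14) rose. In SIN3B knockdown BIN1 (-0.72 ± 0.11), DOC2A (-0.77 ± 0.12) and RIMS4 (-0.66 ± 0.12) fell, and NSF, which takes SNARE complexes apart (0.39 ± 0.08), STXBP5 (0.62 ± 0.14) and HOMER1 (0.42 ± 0.12) rose. Of 60 other neuronal genes, 41 were tested; 9 fell and 3 rose in SIN3A knockdown, and 12 fell and 3 rose in SIN3B knockdown. CRMP1 (-1.53 ± 0.27) and the sodium channel gene SCN8A (-0.91 ± 0.16) fell in SIN3A knockdown, while TUBA1A (0.42 ± 0.08), KIF5C (0.47 ± 0.10) and STMN1 (0.32 ± 0.07) rose. RBFOX2, a splicing regulator (-0.88 ± 0.07), BASP1 (-1.43 ± 0.14) and KCNH2 (-1.03 ± 0.18) fell in SIN3B knockdown, while KIF5C (0.61 ± 0.10), NOVA1 (0.85 ± 0.15) and STMN1 (0.23 ± 0.07) rose. The median log2 fold change of the 85 tested genes of both lists was -0.12 in SIN3A and -0.16 in SIN3B knockdown.

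Some markers of other cell types fell in SIN3A knockdown: 3 of 6 tested glial and 2 of 3 tested squamous and epithelial markers, where 10.8% of all genes tested fell, but none of the tested fibroblast and haematopoietic markers. Of all genes tested, 12.2% rose in SIN3A knockdown, and 11.6% fell and 12% rose in SIN3B knockdown. The summed level of 10 glial markers was 11.1 to 12 CPM in SIN3A knockdown, 13.3 to 17 CPM in SIN3B knockdown and 19.9 to 22.7 CPM in control; 6 were over the floor and tested, MBP, OLIG1 and OLIG2 fell in SIN3A knockdown, OLIG1 and OLIG2 in SIN3B knockdown, and SOX10 had no count. The summed level of 8 squamous and epithelial markers was 4.38 to 7.36 CPM in SIN3A knockdown, 13 to 14.1 CPM in SIN3B knockdown and 14.6 to 15.3 CPM in control; of the 3 tested, EPCAM and CDH1 fell in SIN3A knockdown and none passed in SIN3B knockdown, and TP63 and KRT19 had no count. The 12 markers of neuronal identity summed to 121 to 142 CPM in SIN3A knockdown, 122 to 129 CPM in SIN3B knockdown and 137 to 147 CPM in control, and of the 5 tested RBFOX3 fell in SIN3A knockdown and none passed in SIN3B knockdown. POU4F1 alone, at a mean of 116 CPM in SIN3A knockdown, 103 CPM in SIN3B knockdown and 118 CPM in control, makes up most of this sum, which says little about the other markers. Of 8 fibroblast markers (27.6 to 38, 26.6 to 30.8 and 27.4 to 28.8 CPM in SIN3A knockdown, SIN3B knockdown and control), 1 of 3 tested rose in SIN3A knockdown, COL1A1, and COL1A2, DCN and FAP had no count. The 8 haematopoietic markers summed to 3.76 to 9.02 CPM in SIN3A knockdown, 4.44 to 5.76 CPM in SIN3B knockdown and 4.04 to 5.64 CPM in control, none of the 3 tested passed, and PTPRC, CD3E and GATA1 had no count. Their part in the results for the synaptic and neuronal genes was not tested.

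An siRNA can lower other transcripts through short matches in their 3′ UTRs. In earlier work on these data, GGTCTAA and AGGTCTA went with lower values in SIN3A knockdown, and ACAGCCT and CAGCCTT in SIN3B knockdown. A match to the first pair stood in 5 of the 41 tested genes (12.2%), against 11.1% of 13425 searched genes, and in 4 of the 17 that fell in SIN3A knockdown (DLG4, KCNC1, SCN2A and SYT11; 23.5%), against 20% of all searched genes that fell. A match to the second pair stood in 13 of the 41 (31.7%), against 36.2% of searched genes, and in 2 of the 9 that fell in SIN3B knockdown (BSN and NLGN2; 22.2%), against 50.7% of all searched genes that fell. The part of such matches in the fall of these genes was not tested.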

How the data were processed

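Poly-A selected, stranded RNA-seq libraries of HEK293T cells were compared: 3 with SIN3A knockdown, 3 with SIN3B knockdown and 3 with control siRNA, grouped by sample title. The authors deposited raw counts per Ensembl gene; the submitters' processing notes name Trimmomatic 0.36, HISAT2 2.1.0, HTSeq and DESeq2 1.20.0 and the build GRCh38, with no order, and the strand setting and annotation are not given in the sources used here. Per the file headers the authors also deposited FPKM values, which were used only within a gene, as log2 with a pseudocount of 1 or 0.1 in limma 3.58.1. The 51 genes, their roles, the other lists and the motif were chosen with earlier results of these data known.

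Counts were tested as deposited in edgeR 4.0.16 (R 4.3.3): TMM scaling, filterByExpr at its defaults (minimum count 10, minimum total 15), a quasi-likelihood F-test on all 9 libraries with robust shrinkage, and Benjamini-Hochberg adjustment over 16686 genes, at 0.05, two-sided. Robust shrinkage was chosen after both settings had been run, since it returned the counts of an earlier analysis of the same data. Standard errors were derived from the fold change and F statistic. Of 58734 genes, 31909 had no count. Gene spans, exon lengths and overlaps come from GENCODE 29. Intervals and the floor cover counting error only. On simulated data the test recovered most planted changes, but the share of false calls was above the nominal rate, so calls near the threshold are less certain than their adjusted p. Members passing in at least 1 comparison were named with their values in every library, and from other lists up to 3 genes each way by adjusted p; a result that this rule covers is withheld and not reported here. Alternatives are described in the closing section; DESeq2 1.42.0 was one of them.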

Additional observations from a re-analysis of the deposited data

How the results depend on the processing

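Over 22 alternatives, no log2 fold change of the genes looked at singly changed sign as called: of 2855 values, 2738 kept their side of the threshold, 91 no longer passed and 26 newly passed. Of the called genes, 11 of 17 in SIN3A knockdown, 3 of 9 in SIN3B knockdown (SYP, STMN3 and TUBB2B) and 8 of 17 between the knockdowns passed in every alternative that tested them; DLG4 and KCNC1 were left out of the one without genes holding a seed-type 7-mer. Depth limits the genes near the floor, where 1 unit of 4 counts decides a value.

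The number of genes that fell was 13 to 17 in SIN3A knockdown (13 to 17 leaving out 1 library each), and 4 to 11 in SIN3B knockdown (5 to 10 leaving out 1 library each). In SIN3B knockdown it was 5 with log2(FPKM + 1), 4 with log2(FPKM + 0.1) and 5 with offsets for exon length and GC content. These counts were near the share of all genes tested that fell in SIN3B knockdown in the main fit, 11.6%, which is not the share in the same settings. Against SIN3B knockdown, the lower genes numbered 9 without genes holding a seed-type 7-mer, 9 with a weight per group, and 10 to 15 leaving out 1 library each, and the higher genes 1 to 3. The number that rose in SIN3A knockdown was 1 with the offsets and 0 to 2 leaving out 1 library each. In SIN3B knockdown it was 1 with no filter, with DESeq2, with counts divided by 4 and with the offsets, 2 with only the 6 libraries compared and with a weight per group, and 0 to 2 leaving out 1 library each. The weight per group and the fit with no robust shrinkage were added after seeing the data; the group weights were 0.619 for SIN3A knockdown, 1.289 for SIN3B knockdown and 1.252 for control. In most of these settings the cause was not tested; a pseudocount of 1 shrinks low genes by construction, SYN1 to -0.29.

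Over all genes tested, SIN3A knockdown had 1352 risen and 2313 fallen genes with upper-quartile factors, against 2029 and 1807, and 1321 to 2269 risen and 1189 to 1740 fallen leaving out 1 library each. Without the genes holding a 7-mer, which leaves fewer genes, SIN3B knockdown had 1098 fallen and 1263 risen, and SIN3A against SIN3B knockdown 1047 lower and 1355 higher. Leaving out 1 library each, SIN3B knockdown had 1307 to 2290 fallen and 1331 to 2465 risen genes. Of the other synaptic and neuronal genes, 12 rose in SIN3A knockdown with the offsets and 5 to 13 leaving out 1 library each, against 7. In SIN3B knockdown 14 fell with the offsets, against 22, and 4 rose on either FPKM scale and with the offsets, 5 without genes holding a 7-mer and 4 to 8 leaving out 1 library each, against 8. Genes with an RE1-type match numbered 3 with 3 mismatches allowed, 9 with 5 allowed and 17 in the first 1000 bases of transcripts, against 5. Other promoter window lengths were not run, as no genome was used here.

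Replicate numbers did not pair the libraries: deviations of same-numbered libraries correlated at -0.124 to 0.034 over 9 pairs, against -0.096 to 0.161 over 18 other pairs. With the replicate number as a block, 16 of the 17 genes fell in SIN3A knockdown (SCN2A did not pass, -2.33), 8 of the 9 fell in SIN3B knockdown (SNAP91 did not pass, -0.55) and the 17 calls between the knockdowns stood.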
